A study of Danio rerio with 6 samples.

Results

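The transcripts described here come from 36 zebrafish genes of sugar metabolism, 30 of glycolysis and 6 of glycogen, among the 25281 genes of each deposited count table. They were chosen by symbol: the rows named for the glucose carrier slc2a1, for the enzymes from hexokinase to lactate dehydrogenase, and for glycogenin, glycogen synthase and glycogen phosphorylase. All 36 symbols had a row. The libraries were made from cardiomyocytes sorted from the atrioventricular canal, the ring of heart tissue between atrium and ventricle, of fish aged 4 to 8 months. There were 3 GFP-positive libraries, labelled β-catenin ON, and 3 GFP-negative libraries, labelled β-catenin OFF; they are called ON and OFF libraries below. Both groups came from the same triple transgenic genotype and no other treatment is given. It combines Tg(myl7:GAL4db-TCFΔC-2A-mCherry), in which the cardiomyocyte promoter of myl7 drives a GAL4 DNA-binding domain joined to a shortened TCF, with the reporter Tg(UAS:EGFP) and the nuclear marker line Tg(myl7:NLS-mCherry). EGFP therefore reports β-catenin activity only in cells in which the myl7 promoter is active.

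Groups follow the sample titles. For the OFF libraries another label and the protocol name an mCherry-negative, EGFP-positive gate. This conflicts with the titles, and which gate was used remains unsettled. Neither the number of hearts per library nor the independence of the sorts is stated, so the p-values cover sample-to-sample spread that may be technical. Counts summed to 14783352 to 19750914 per library. ON replicate 3 lay far from the remaining 5 libraries along principal component 1, and 10093 of its genes reached 10 counts, against 12031 to 14355 elsewhere.

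Glycolysis splits glucose into pyruvate in the cytosol and yields ATP without oxygen. Glucose enters through carriers of the SLC2A family, is phosphorylated by hexokinase and phosphofructokinase, is cut by aldolase, and passes through the dehydrogenase and kinase steps that give NADH and ATP. Lactate dehydrogenase converts pyruvate and lactate into each other. Glycogen is the stored form of glucose: glycogenin primes it, glycogen synthase extends it, and glycogen phosphorylase releases glucose units from it. The adult mammalian heart draws most of its energy from fatty acids and uses glucose and lactate as well. Zebrafish keep duplicates of many of these genes, marked a and b, so that one enzyme step often has several paralogs.

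Summed over paralogs, transcripts of each of the 12 steps of glycolysis, uptake included, were fewer in every ON than in any OFF library, and single paralogs of a step had unequal fold changes. Sums over other sets of genes were not computed for comparison. As single genes, 17.6% of all tested genes were lower in this way, and 36.7% of those averaging at least 100 counts per 1e6. Of 28 glycolysis members tested, slc2a1a, hk1, pfkmb, aldoaa, tpi1b, pgam2, eno1a, eno3 and ldhba fell, and gapdhs rose (edgeR quasi-likelihood test, adjusted p under 0.05 over 13490 genes). These are 9 lower and 1 higher, where 4.21% of all tested genes passed, 2.13% lower and 2.08% higher. No member passed as lower at the steps of glucose-6-phosphate isomerase, glyceraldehyde-3-phosphate dehydrogenase, phosphoglycerate kinase and pyruvate kinase, although their sums were lower. Levels are given in CPM, counts per 1e6 after TMM scaling. Among the 974 tested genes averaging 100 CPM or more, a level that 19 of the 28 reached, 23.8% passed, 15.7% lower and 8.11% higher; of those 19 members 8 fell and 1 rose. The median log2 fold change of the 28 was -0.996, against 0.01 over all tested genes and -0.15 over those of at least 100 CPM. Of 6 glycogen members, all tested, gyg1b rose and 5 did not pass. The cut at 100 CPM was chosen after the data were seen. In bulk samples such as these, fewer cells of a type and less RNA per cell cannot be told apart.

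Most calls were lost when 1 library was left out. Without OFF replicates 1, 2 and 3, the glycolysis members that fell numbered 1, 3 and 0. Without ON replicates 1, 2 and 3 they numbered 2, 0 and 8. Those 2 included pfkpb, and those 8 included gpib and pkmb, which did not pass with all 6 libraries. No glycolysis member rose in any of these 6 fits. Over all tested genes, those lower numbered 14, 72, 14, 66, 40 and 575 in the same order, against 288 with all 6 libraries. gyg1b passed without ON replicate 3 and in none of the other 5. The directions of the 11 called members were the same in all 16 alternative fits.

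**Figure D1:**
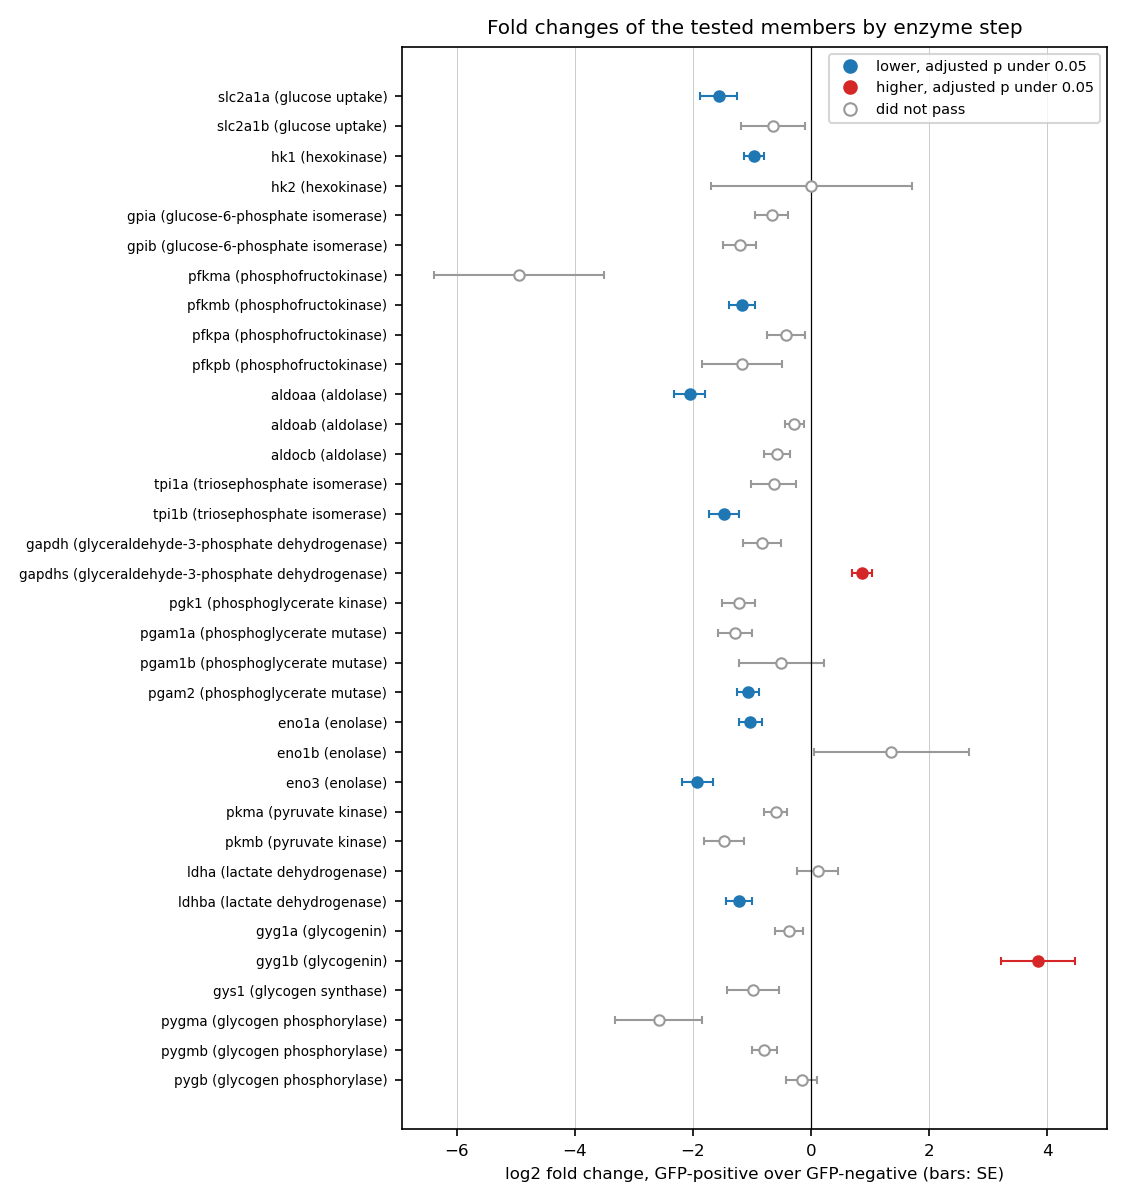
Log2 fold change of each of the 34 tested members, GFP-positive over GFP-negative libraries, with its SE from the edgeR fit (n = 3 against 3). Filled blue points fell, filled red points rose and open points did not pass an adjusted p of 0.05; gyg1b lies farthest to the right at 3.84 and aldoaa at -2.05 is the lowest filled point.

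Values per library showed the same order. In 18 of the 28 glycolysis members the highest ON library lay below the lowest OFF library, and in 1, gapdhs, the order was the opposite. Such a separation was seen downward in 17.6% of all tested genes and upward in 12.1%; among genes of at least 100 CPM it was seen downward in 36.7%, against 15 of the 19 members at that level. Of the 3 glycogen steps, summed glycogen phosphorylase was lower without overlap and glycogenin and glycogen synthase overlapped. aldoca and eno2 were not tested, since they had 16 and 17 counts in all.

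**Figure D2:**
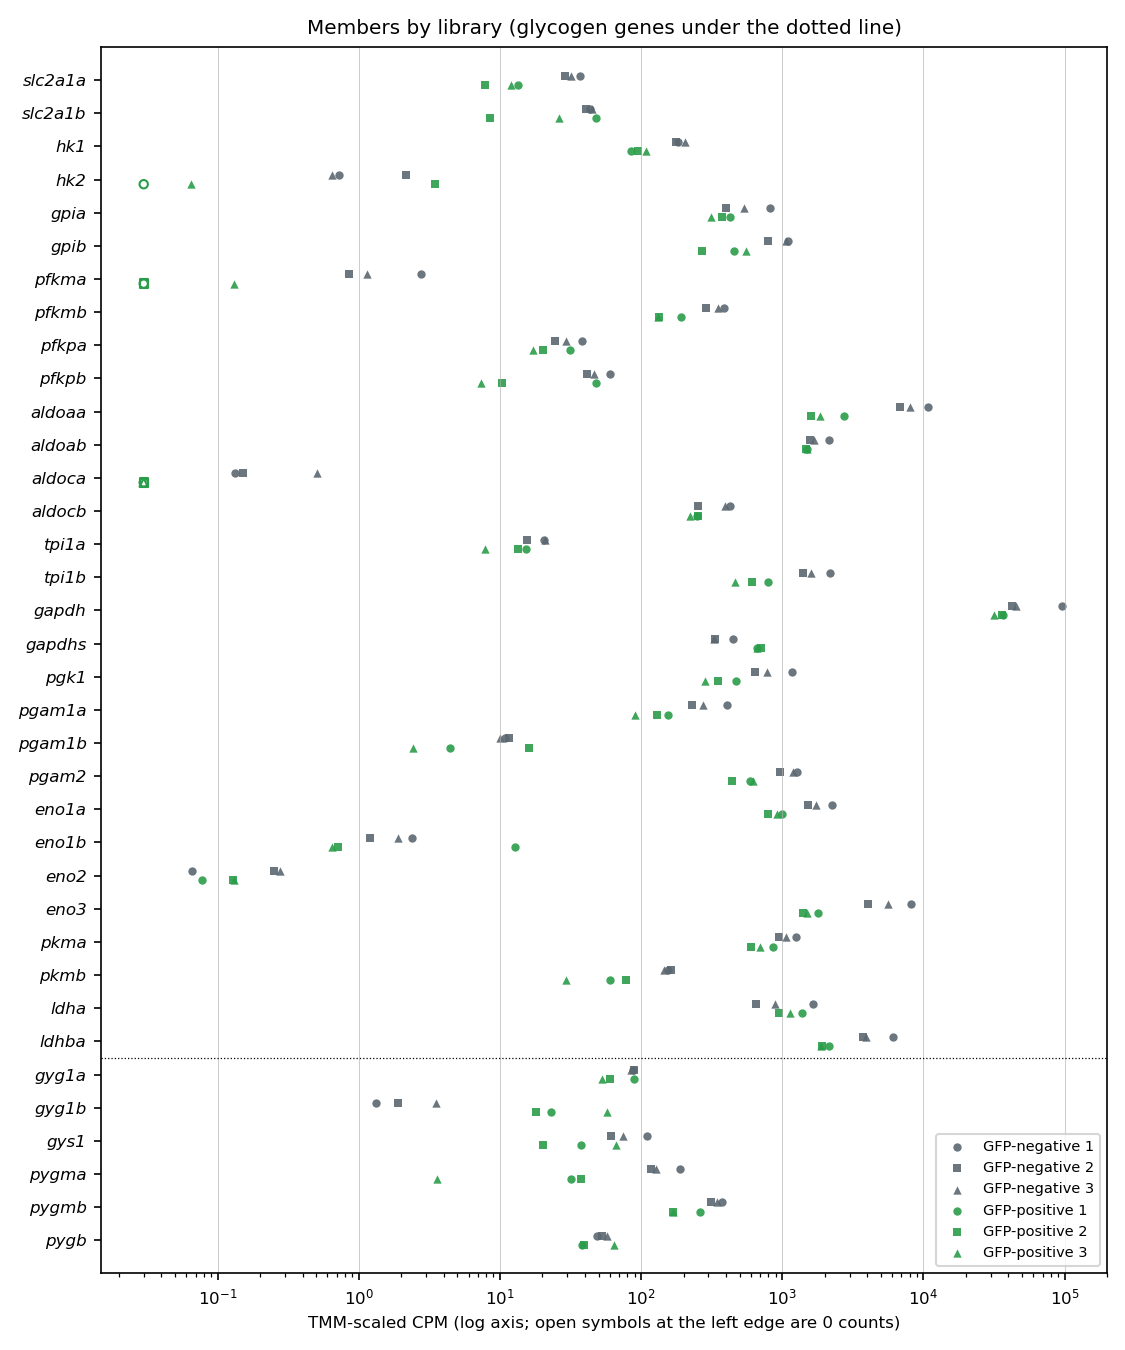
TMM-scaled CPM of all 36 members in each library on a log axis, grey for GFP-negative and green for GFP-positive libraries, with a symbol for each replicate. The green symbols lie left of the grey ones for most glycolysis genes, right of them for gapdhs and gyg1b, and spread widely for slc2a1b, pfkpb, eno1b and pygma; levels of different genes are not set per transcript length.

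Together the 30 glycolysis members took 12.8%, 7.85% and 8.28% of all counts in OFF replicates 1, 2 and 3, and 4.55%, 4.71% and 4.41% in ON replicates 1, 2 and 3. gapdh alone made up 60.2% to 70.2% of these counts in the OFF and 69.9% to 74.6% in the ON libraries. Without gapdh the share was 2.91% to 3.81% and 1.19% to 1.37%. Transcripts of the mitochondrial genome took 11.9% to 15.7% of OFF and 35.6% to 44.9% of ON counts, which lowers every other share. With these and the haemoglobins taken out of the total, the glycolysis share was 15.0%, 9.32% and 9.41% in the OFF and 8.29%, 7.92% and 6.89% in the ON libraries, so the groups still did not overlap. The 6 glycogen members took 0.0736% to 0.0761% of OFF and 0.0335% to 0.0420% of ON counts.

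**Figure D3:**
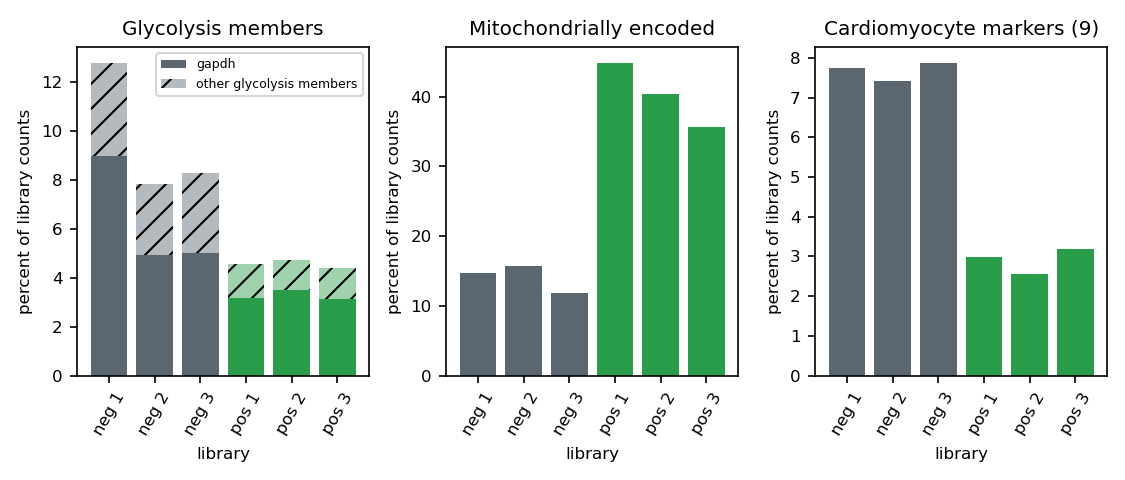
Percent of each library's counts from glycolysis members (solid gapdh, hatched the other members), from mitochondrially encoded genes and from 9 cardiomyocyte marker genes; grey bars are GFP-negative and green bars GFP-positive libraries. Glycolysis members and cardiomyocyte markers are lower, and mitochondrially encoded transcripts higher, in all 3 GFP-positive libraries.

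Markers of the cells themselves moved with the groups. The 9 matched cardiomyocyte markers summed to 74242 to 78791 CPM of total counts in the OFF and 25556 to 31846 in the ON libraries. Of the 9, 5 fell and 1 rose (myh6), and the median log2 fold change was -0.98. The falls were unequal. myh7l fell most (-2.99), with 15552.5 to 21723.6 CPM of total counts in the OFF and 1485.92 to 3092.3 in the ON libraries. ttn.1, ttn.2 and ryr2b did not pass (-0.49, -0.22 and -0.53). Higher in every ON than in any OFF library were the summed markers of endocardium and endothelium (292.7 to 556 against 81.9 to 195 CPM), fibroblasts and valve interstitial cells (423 to 804 against 110 to 307), epicardium (785 to 1292 against 197 to 265), smooth muscle and mural cells (547 to 872 against 206 to 274), erythrocytes (1664 to 2645 against 518 to 755) and neurons and glia (92.7 to 208 against 6.68 to 11.1, mostly snap25a). In that order, 10 of 10, 9 of 10, 7 of 8, 6 of 8, 7 of 7 and 8 of 12 genes had higher means in the ON libraries, and 2, 3, 5, 2, 4 and 1 rose. The epicardium sum was mostly krt94 and krt4, which rose, as did tcf21, aldh1a2 and anxa1a of that list. tbx18 and wt1b overlapped between groups. wt1a, not tested at 29 counts over the OFF and 3 over the ON group, was lower in every ON than in any OFF library. The smooth muscle and mural sum was mostly acta2, at 803, 516 and 636 CPM of total counts in the ON libraries. Of the same list, pdgfrb and notch3 were lower in every ON than in any OFF library and did not pass. Macrophage and thrombocyte markers overlapped, at 31.6 to 249 and 7.70 to 44.9 CPM over all libraries, with 1 macrophage gene lower. No matched marker was at 0 in all 6 libraries. The 2 most abundant markers of each list, in the order above, were myl7 and cmlc1, klf2a and egfl7, dcn and col1a2, krt94 and krt4, acta2 and rgs5a, hbaa1 and hbba2, snap25a and elavl4, mpeg1.1 and coro1a, and fermt3b and itga2b. The part of these other cells in the member results was not tested.

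Set against the cardiomyocyte transcript myl7 instead of the whole library, the members spread to both sides. The myosin light chain gene myl7 itself fell, with levels of 34694, 24721 and 26967 CPM in the OFF and 15741, 12635 and 15405 CPM in the ON libraries (log2 fold change -0.98, edgeR adjusted p = 0.0321). Within each library, 26 glycolysis members with at least 10 counts throughout were divided by myl7. The median difference of these log2 ratios between groups was -0.02, against 0.98 over all 8216 genes counted the same way and 0.82 over the 973 of them averaging 100 CPM or more. Dividing by myl7 shifts the difference of every gene by the same amount. The distance between these medians therefore largely repeats that of the fold changes above and is no separate result. The ratio to myl7 was lower in every ON library than in any OFF one for slc2a1a, aldoaa, tpi1b and eno3 (differences of -0.62, -1.09, -0.51 and -0.90), and higher for pfkpa, aldoab, gapdhs, pkma and ldha (0.52, 0.71, 1.85, 0.37 and 1.18). The other 17 overlapped, hk1, pfkmb, pgam2, eno1a and ldhba among them. For pfkpa the groups were only just separate, with a log2 ratio of -9.80 in ON replicate 3 and -9.83 in OFF replicate 1. Of the 6 glycogen members, with a median difference of 0.36, pygma was lower without overlap (-2.15) and gyg1b and pygb were higher (4.76 and 0.77). The remaining 3, gyg1a, gys1 and pygmb, overlapped (0.56, -0.13 and 0.16). Over all genes counted this way the ratio was lower without overlap in 1.38% and higher in 55.4%, and among those averaging 100 CPM or more in 4.01% and 64.2%. These shares carry the same shift. This comparison was added after the data were seen and carries no test. It rests on myl7 alone, and ratios to other cardiomyocyte markers were not computed. Those markers had unlike log2 fold changes, from -2.99 for myh7l to 1.87 for myh6, with ttn.1 at -0.49 and ttn.2 at -0.22. The side on which a member falls therefore depends on the gene chosen.

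At glucose uptake, slc2a1a and slc2a1b encode forms of GLUT1, the carrier that admits glucose without insulin. slc2a1a stood at 37.0, 28.9 and 31.7 CPM in OFF replicates 1, 2 and 3 and at 13.3, 7.86 and 11.9 CPM in ON replicates 1, 2 and 3. It fell 2.95-fold without overlap (log2 fold change -1.56 ± 0.32 SE, edgeR adjusted p = 0.0410). slc2a1b stood at 43.5, 40.6 and 45.1 CPM and at 47.8, 8.50 and 26.4 CPM, so ON replicate 1 lay above all OFF libraries and replicate 2 far below them. It did not pass (-0.64 ± 0.54, edgeR adjusted p = 0.664). Left without 1 library at a time, slc2a1a passed without ON replicate 3 and in none of the other 5 fits (-1.65 to -1.31, adjusted p = 0.0436 to 0.232), and with RLE size factors it did not pass either.

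Hexokinase traps glucose in the cell as glucose 6-phosphate. hk1, the form that most tissues use, stood at 184, 176 and 204 CPM in the OFF and at 85.5, 95.5 and 108 CPM in the ON libraries. The groups lay well apart, and hk1 fell 1.95-fold (-0.97 ± 0.17, edgeR adjusted p = 0.0280). hk2, the form of insulin-responsive muscle in mammals, had 11, 43 and 14 counts and then 0, 54 and 1, with nearly all ON counts in replicate 2 (log2 fold change 0.01 ± 1.70, edgeR adjusted p = 1.00). Its sign changed with the setting. hk1 passed without ON replicate 3 and in none of the other 5 fits that left out 1 library (-1.07 to -0.83, adjusted p = 0.0325 to 0.180).

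Glucose-6-phosphate isomerase turns glucose 6-phosphate into fructose 6-phosphate. gpib, the paralog with more counts, stood at 1108, 788 and 1067 CPM in the OFF and 458, 272 and 553 CPM in the ON libraries. The groups did not overlap, yet gpib did not pass (-1.21 ± 0.28, edgeR adjusted p = 0.0562, 0.00230 to 0.275 over the alternatives), except without ON replicate 3 among the fits that left out 1 library (adjusted p = 0.0464). Its paralog gpia had overlapping groups (-0.66 ± 0.28, adjusted p = 0.250), and its log2 fold change was -0.32 without OFF replicate 1.

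Phosphofructokinase commits sugar to glycolysis and is its main point of control. pfkmb, a copy of the muscle form, stood at 389, 290.1 and 353 CPM in the OFF and at 193, 135 and 133 CPM in the ON libraries. It fell 2.24-fold (-1.17 ± 0.21, edgeR adjusted p = 0.0321) and was clear of overlap. The other muscle copy, pfkma, was nearly absent from the ON libraries, with 84 counts over the OFF and 2 over the ON group. That is a ratio of 32.4 per effective library size (exact 95% counting interval 8.70 to 272, counting error only), and pfkma did not pass (edgeR adjusted p = 0.107). pfkpa and pfkpb, copies of the form known from platelets, did not pass (-0.42 ± 0.32 and -1.17 ± 0.68). pfkpa stood at 38.1, 24.8 and 29.4 CPM and then at 31.2, 20.3 and 17.3 CPM. pfkpb stood at 60.7, 41.4 and 46.1 CPM and then at 48.1, 10.4 and 7.35 CPM, so 1 ON library resembled the OFF ones and the other 2 did not. Without that library, ON replicate 1, pfkpb passed (-2.43, adjusted p = 0.0373). pfkmb passed in none of the 6 fits that left out 1 library (-1.31 to -1.04, adjusted p = 0.0515 to 0.158).

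Aldolase cuts the doubly phosphorylated sugar into a pair of three-carbon units. aldoaa, a copy of the muscle form, stood at 10721, 6826 and 8038 CPM in the OFF and 2728, 1599 and 1861 CPM in the ON libraries. It fell 4.13-fold, the largest fall among the called members in this fit (-2.05 ± 0.26, edgeR adjusted p = 0.0119). Its sister copy aldoab stood at 2158, 1566 and 1685 CPM and then at 1496, 1469.8 and 1497 CPM. Those groups were only just separate, and aldoab did not pass (-0.28 ± 0.16, edgeR adjusted p = 0.455). aldocb, a copy of the brain form, stood at 430.1, 252 and 396 CPM and then at 248, 253 and 221 CPM, with overlap and no pass (-0.58 ± 0.22, adjusted p = 0.211). aldoca had 2, 3 and 11 counts in the OFF libraries and 0 in each ON one, at least 4.12-fold lower against a floor of 3 counts over the group. Left without 1 library, aldoaa passed without OFF replicate 2 and ON replicates 1 and 3 (-2.25 to -1.82, adjusted p = 0.0307 to 0.0566 over the 6 fits).

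Triosephosphate isomerase interconverts the three-carbon units. tpi1b stood at 2182, 1393 and 1592 CPM in the OFF and at 787, 613.5 and 462 CPM in the ON libraries, and fell 2.77-fold (-1.47 ± 0.25, edgeR adjusted p = 0.0280). tpi1a had far fewer counts, with 20.5, 15.6 and 20.8 CPM and then 15.4, 13.5 and 7.81 CPM. Its groups nearly touched, and it did not pass (-0.63 ± 0.38, adjusted p = 0.474). tpi1b passed without ON replicate 3 and in none of the other 5 fits that left out 1 library (-1.64 to -1.25, adjusted p = 0.0459 to 0.105).

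Glyceraldehyde-3-phosphate dehydrogenase makes the NADH of the pathway. gapdh stood at 96782, 42599 and 45443 CPM in the OFF and at 36446, 36045 and 31668 CPM in the ON libraries. OFF replicate 1 stood far above the other two of its group, and gapdh did not pass (-0.83 ± 0.32, edgeR adjusted p = 0.210; -0.31 without that library). gapdhs, whose mammalian counterpart is known from sperm, moved the other way: 452, 332 and 330.4 CPM against 663, 704 and 660 CPM. It rose 1.82-fold without overlap (0.86 ± 0.17, edgeR adjusted p = 0.0402). The rise did not pass with upper-quartile factors or in any of the 6 fits that left out 1 library (0.77 to 1.06, adjusted p = 0.0546 to 0.212). Close copies can share reads, so the split of counts between paralogs, here and at the other steps, is uncertain.

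Phosphoglycerate kinase gives the first ATP back. pgk1 stood at 1168, 637 and 775 CPM in the OFF and at 470, 353 and 285 CPM in the ON libraries, without overlap, and did not pass (-1.22 ± 0.28, edgeR adjusted p = 0.0553, 0.00132 to 0.191 over the alternatives). Phosphoglycerate mutase moves the phosphate within the molecule. pgam2, the muscle form in mammals, stood at 1282, 971 and 1190.4 CPM and then at 591, 439 and 619 CPM, and fell 2.09-fold (-1.06 ± 0.19, edgeR adjusted p = 0.0312). pgam1a stood at 408, 230.1 and 276 CPM and then at 155, 130 and 90.3 CPM. It too was without overlap and narrowly missed an adjusted p of 0.05 (-1.29 ± 0.29, adjusted p = 0.0513, 9.58e-04 to 0.186 over the alternatives). pgam1b stood at 10.8, 11.5 and 10.1 CPM and then at 4.42, 16.04 and 2.41 CPM, with overlap (-0.50 ± 0.72, adjusted p = 0.841). pgam2 passed without ON replicate 3 and in none of the other 5 fits that left out 1 library (-1.18 to -0.87, adjusted p = 0.0426 to 0.189).

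Enolase makes phosphoenolpyruvate. eno3, the muscle form in mammals, stood at 8148, 4079 and 5576 CPM in the OFF and at 1792, 1402 and 1504 CPM in the ON libraries. It fell 3.79-fold, next to aldoaa in size (-1.92 ± 0.27, edgeR adjusted p = 0.0157). eno1a, a copy of the widespread form, stood at 2256, 1517 and 1725 CPM and then at 997, 788 and 913 CPM, and fell 2.04-fold (-1.03 ± 0.19, adjusted p = 0.0344). eno1b had 36, 24 and 41 counts and then 165, 11 and 10, so its positive fold change came from ON replicate 1 (1.36 ± 1.31, adjusted p = 0.720; -1.37 without that library). eno2, the neuronal form in mammals, had 1 to 6 counts in every library. Left without 1 library, eno3 passed without OFF replicates 1 and 2 and ON replicate 3 (-2.15 to -1.59, adjusted p = 0.0264 to 0.0688 over the 6 fits), while eno1a passed in none (-1.16 to -0.82, adjusted p = 0.0528 to 0.158).

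Pyruvate kinase closes the pathway with a further ATP. pkma stood at 1249, 949 and 1069 CPM in the OFF and at 866, 602 and 693 CPM in the ON libraries, without overlap and without passing (-0.60 ± 0.19, edgeR adjusted p = 0.134). pkmb, at 146 to 162 CPM and then 29.3 to 77.8 CPM, did not pass either (-1.47 ± 0.34, adjusted p = 0.0553, 0.00101 to 0.204 over the alternatives). It passed without ON replicate 3, the library with its lowest level (adjusted p = 0.0325).

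Lactate dehydrogenase is a tetramer of A and B subunits, of which B prevails in mammalian heart and A in skeletal muscle. ldhba stood at 6121, 3739 and 3950 CPM in the OFF and at 2143, 1911 and 1882 CPM in the ON libraries, and fell 2.33-fold (-1.22 ± 0.22, edgeR adjusted p = 0.0294). ldha stood at 1661, 649 and 891 CPM and then at 1372, 952 and 1139 CPM. Those groups overlapped completely, with OFF replicates holding both the highest and the lowest level (0.11 ± 0.34, adjusted p = 0.937), and the sign of the fold change was negative with upper-quartile factors or no composition factor. ldhba passed without OFF replicate 2 and in none of the other 5 fits that left out 1 library (-1.36 to -0.93, adjusted p = 0.0478 to 0.0925).

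The ratio of paralogs within a library needs no scaling between libraries, and 11 of 18 pairs had ratios that did not overlap between groups. No such share was computed for pairs of other genes, so the 11 cannot be called particular to these paralogs. Single genes lay apart downward in 17.6% and upward in 12.1% of all tested genes, and in 36.7% and 18.8% of those of at least 100 CPM. aldoaa had 4.36 to 4.97 times the counts of aldoab in the OFF and 1.09 to 1.82 times in the ON libraries, a difference of -1.80 ± 0.23 (SE) on the log2 scale. The log2 ratio of gapdh to gapdhs differed by -1.60 ± 0.24 and that of ldha to ldhba by 1.39 ± 0.22, so ldha gained relative to ldhba by 2.63 times. eno1a gained on eno3 by 0.86 ± 0.13 and tpi1a on tpi1b by 0.81 ± 0.17. pfkpa gained on pfkpb by 1.21 ± 0.58, yet those groups nearly touched. Its count ratio to pfkpb was 0.599 to 0.639 in the OFF libraries and 0.649, 1.94 and 2.34 in ON replicates 1, 2 and 3. The log2 ratio of pfkma to pfkmb differed by -2.70 ± 0.71 and that of aldoca to aldocb, at few counts, by -1.49 ± 0.47. Both sizes depend on the added count: with 0.5 and 5 in place of 1 they were -3.42 and -0.95 for the first pair and -2.31 and -0.043 for the second. Each of these had p = 0.1 in the two-sided exact permutation test, the smallest that 3 against 3 libraries allows, and 0.164 after Benjamini-Hochberg adjustment over the 18 pairs, so none can pass. These ratios compare counts and are not set per transcript length. The pairs of slc2a1, hk, gpi, pgam and pkm genes and eno1a with eno1b overlapped between groups.

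**Figure D4:**
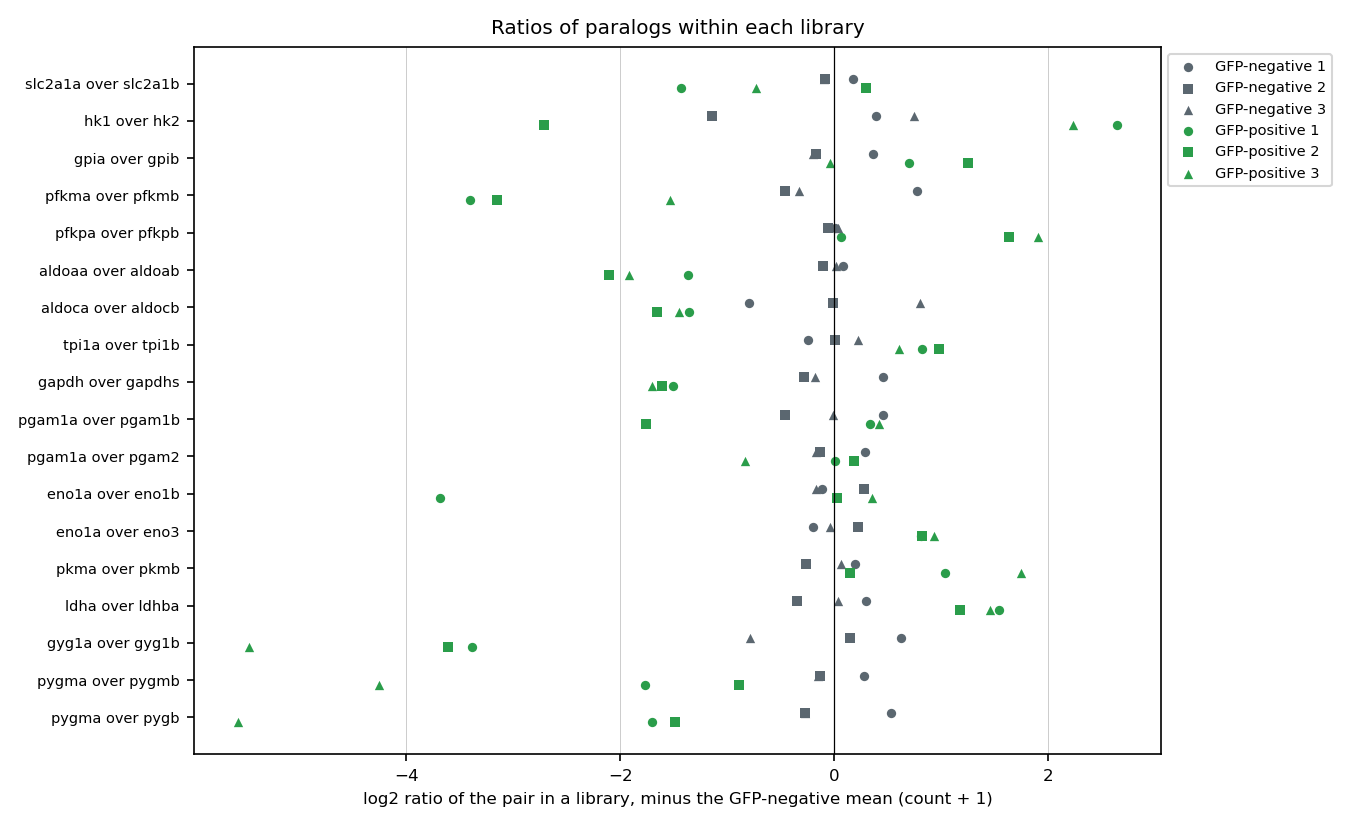
Log2 ratio of the counts (plus 1) of 18 pairs of paralogs in each library, shown as the difference from the mean of the GFP-negative libraries, grey for GFP-negative and green for GFP-positive libraries. Green points lie apart from grey ones in 11 pairs, among them aldoaa over aldoab (mean -1.80), ldha over ldhba (1.39) and gyg1a over gyg1b (-4.16).

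Among glycogen genes the paralogs of glycogenin parted most. gyg1b, at 1.32, 1.91 and 3.55 CPM in the OFF and 23.0, 18.0 and 57.3 CPM in the ON libraries, rose 14.4-fold (3.84 ± 0.63, edgeR adjusted p = 0.0249). The lowest ON library held 279 counts and the highest OFF one 77. gyg1a stood at 87.9, 88.6 and 85.2 CPM and then at 89.7, 60.2 and 52.6 CPM, with overlap, and did not pass (-0.37 ± 0.24, adjusted p = 0.514). The ratio of gyg1a to gyg1b went from 23.7 to 63.2 in the OFF to 0.919 to 3.90 in the ON libraries, and summed glycogenin counts overlapped, at 88.8 to 90.6 and 78.2 to 112.7 CPM. The call of gyg1b was lost with limma-voom (adjusted p = 0.0917) and without each library other than ON replicate 3 (3.16 to 4.31, adjusted p = 0.0295 to 0.145 over the 6 fits).

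Glycogen synthase and the phosphorylases did not pass. gys1, the muscle form of the synthase, stood at 110, 61.7 and 74.2 CPM in the OFF and at 37.6, 20.4 and 66.9 CPM in the ON libraries, with overlap through ON replicate 3 (-0.98 ± 0.44, edgeR adjusted p = 0.294). pygmb, a copy of the muscle phosphorylase, stood at 375, 312 and 344 CPM and then at 261, 169 and 168 CPM. These groups did not overlap, as in pygma, the other copy, at 189, 118 and 128 CPM and then 31.8, 37.7 and 3.58 CPM. pygmb had a log2 fold change of -0.79 ± 0.22 and pygma of -2.57 ± 0.74 (edgeR adjusted p = 0.0890 and 0.0998). pygma passed without ON replicate 3, in which its level was lowest (-2.07, adjusted p = 0.0224). pygb, the form known from brain, overlapped (-0.16 ± 0.26, adjusted p = 0.870). In ratio to pygmb and to pygb, pygma was lower in every ON library than in any OFF one (-2.30 ± 1.02 and -2.92 ± 1.35 on the log2 scale, exact permutation p = 0.1 for both, adjusted p = 0.164). Without ON replicate 3, which held 55 pygma counts, these differences were -1.33 and -1.59.

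Spread within a group differed between members. Over 32 tested members with counts in every library, the highest library held a median of 1.48 times the lowest among OFF and 1.69 times among ON libraries. The range exceeded 3-fold in 7 members among ON libraries, slc2a1b, pfkpb, pgam1b, eno1b, gyg1b, gys1 and pygma, and in 0 among OFF ones. Over the 11118 tested genes with counts in every library these medians were 1.43 and 2.76, and the range exceeded 3-fold in 6.42% among OFF and 46.7% among ON libraries. hk2 and pfkma, left out for a count of 0 in an ON library, ranged 3.34-fold and 3.26-fold among OFF libraries. OFF replicate 1 held the highest level of its group in 22 of the 28 glycolysis members, against 33.8% of all tested genes and 55.3% of those with at least 100 CPM. Among members of at least 100 CPM, gapdh and ldha stood farthest above the next library there.

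Of 98 further genes of the same pathways, chosen as a list beside the members, 87 had a row and 62 were tested. None passed in either direction, where 4.21% of all tested genes did, a share that would give few calls in a list of this size. At an unadjusted p under 0.05 in the edgeR test there were 13, where 18.9% of all tested genes had such a p, so this total lies near the background. By direction, 10 were lower and 3 higher, against 9.79% and 9.11% of all tested genes. No test was run over this list. The groups lay lower without overlap in 21 of the 62 and higher in 3, against 17.6% and 12.1% of all tested genes. With DESeq2 1 rose and 4 fell, with limma-voom 2 fell. The median log2 fold change of the 62 was -0.54, against 0.01 over all tested genes. ugp2a, which makes the UDP-glucose used for glycogen, stood at 54.6 ± 4.55 CPM (SD, n = 3) in the OFF and 21.0 ± 8.07 CPM in the ON libraries (-1.38 ± 0.32, edgeR adjusted p = 0.0549). mpc1, a subunit of the mitochondrial pyruvate carrier, stood at 853 ± 177 and 516 ± 8.86 CPM (-0.73 ± 0.18, adjusted p = 0.0656). The branching enzyme gene gbe1b, the debranching enzyme gene agla, the phosphorylase kinase subunit gene phkb and the phosphoglucomutase gene pgm1 did not pass, with log2 values of -1.62, -0.60, -0.80 and -0.83 (adjusted p = 0.0977 to 0.180). pfkfb1, which sets the level of a phosphofructokinase activator, had 0 counts in the ON and 54 over the OFF libraries. It was at least 13.9-fold lower against a floor of 3 counts over the group (edgeR adjusted p = 0.0528). Its mean in the OFF libraries was 0.944 CPM. pfkfb3, the most abundant pfkfb gene tested, was higher without overlap, averaging 38.2 CPM in the OFF and 56.5 CPM in the ON libraries. It did not pass (0.57 ± 0.21, edgeR adjusted p = 0.198). pfkfb2b and pfkfb4b had log2 fold changes of 0.39 and 0.08, and pfkfb2a and pfkfb4a of -0.51 and -0.999. These overlapped between groups and did not pass. The hypoxia factor genes hif1aa and hif1ab did not pass (-1.81 ± 1.099 and -0.48 ± 0.26). ON replicates 1, 2 and 3 held 287, 291 and 3 counts of hif1aa, so its fold change leans on ON replicate 3. The further genes given by name here were picked after their values were seen.

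**Figure D5:**
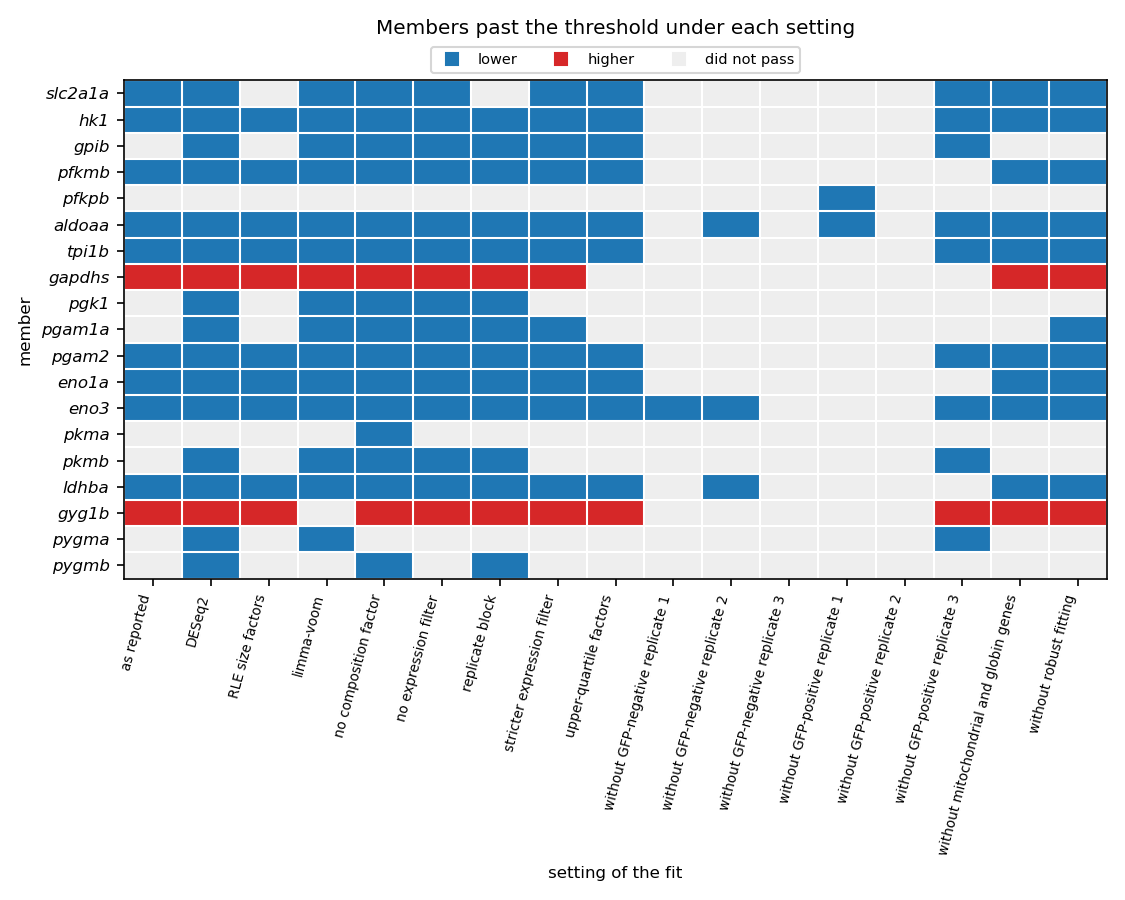
Members past an adjusted p of 0.05 in at least 1 of 17 fits, the one reported first and then 16 alternatives; blue marks a call lower in GFP-positive libraries, red a call higher and grey no call. The columns that leave out 1 library are mostly grey except without GFP-positive replicate 3, and the 19 members shown keep 1 direction wherever they passed.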

How the data were processed

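Per the labels' protocols, atrioventricular tissue was digested with collagenase, cells were sorted by flow cytometry, and RNA was amplified with a SMART-Seq v4 kit before library preparation. No molecular identifiers are described, so counting intervals and floors leave out amplification error. The authors deposited 1 table of raw counts per library. Aligner, counter and build names were not given in the sources used here. Pairs of libraries in a group differed far beyond sampling noise (chi-square per degree of freedom 32.1 to 102), and all 6 were kept as samples. Separate amplifications of 1 RNA pool could differ in this way too, so the check does not show that the libraries are independent samples.

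The test was edgeR's (4.0.16, R 4.3.3; filterByExpr, TMM, robust quasi-likelihood F test, group only), adjusted by Benjamini-Hochberg over 13490 genes. Fold changes set ON over OFF libraries, SE is the absolute log2 fold change over the square root of F, and levels are TMM-scaled CPM; marker sums use CPM of all counts. DESeq2 1.42.0, limma-voom 3.58.1, other scalings and filters, a replicate block and each library left out were alternatives. Paralog ratios used log2 of count plus 1 and exact permutation tests. Named were all members, with library values for called members, their paralogs at the step and the most abundant member of a step, plus myl7 and the 2 most abundant markers of each list. Members and lists were chosen with earlier results of these data known. No sequence was used.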

Additional observations from a re-analysis of the deposited data

How the results depend on the processing

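Over all genes, 938 rose and 729 fell with DESeq2, and 509, 507 and 450 fell with limma-voom, no composition factor and upper-quartile factors. The all-gene median of log2 fold changes went from 0.01 to -0.16 with no composition factor, -0.11 with upper-quartile factors, -0.36 with limma-voom and -0.29 with the replicate block. Leaving out 1 library gave 30 to 443 higher and 14 to 575 lower. Glycolysis members lower numbered 14 with no composition factor and 0 to 8 without 1 library; those higher numbered 0 with upper-quartile factors and 0 without each library. Glycogen members lower numbered 2 with DESeq2, 1 with limma-voom, 1 with no composition factor and 0 to 1 without 1 library, and those higher 0 with limma-voom and 0 to 1 without 1 library. Of other pathway genes 1 rose and 4 fell with DESeq2, and 2, 2, 1 and 3 fell with limma-voom, no composition factor, no expression filter and upper-quartile factors, and 0 to 2 without 1 library. Over counts without mitochondrial and haemoglobin genes the mean glycolysis share of ON libraries was 7.70%, and the glycogen share 0.0874% in OFF and 0.0656% in ON libraries.

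Same-numbered libraries deviated together weakly (r = 0.131, 0.187 and 0.0922) and each correlated best with its own number, a hint from the data and not from the design. With the replicate number as a block, 282 genes rose and 290 fell, with 12 glycolysis members lower and 1 higher, 1 glycogen member lower and 2 other pathway genes lower, and slc2a1a did not pass.

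The log2 fold change of hk2 was -2.12 with limma-voom, -0.165 with no composition factor, -0.018 with no filter, -2.27 with the block, -0.061 with upper-quartile factors, and -4.75 to 0.76 over the fits without 1 library. That of eno1b was -0.036 with the block and -1.37 to 1.87 without 1 library. That of ldha was -0.0094 with no composition factor, -0.015 with upper-quartile factors, and -0.16 to 0.62 without 1 library. That of pygb was -0.46 to 0.043 without 1 library. Among paralog ratios, the difference for hk1 to hk2 was -0.31 with a pseudocount of 5 and -0.23 to 2.44 without 1 library. Without 1 library, that for pgam1a to pgam1b was -0.71 to 0.38, for pgam1a to pgam2 -0.41 to 0.10 and for eno1a to eno1b -1.83 to 0.19. Apart from these sign changes, which were not past the threshold, 432 of the member values in alternative fits kept direction and side, 58 lost the threshold and 34 gained it. The cause was not tested. With 3 libraries a group and few counts for hk2, eno1b and pfkma, only large differences in these genes were detectable.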
